A study of Mus musculus with 4 samples.

Results

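Interferon stimulated genes were examined in 4 subclones of the mouse hybridoma 36-65, a fusion line of an antibody-producing B cell and a myeloma cell. The members are 34 genes that interferons are known to induce. Every probe set with exactly 1 of these symbols in the platform annotation was taken, which gave 46 probe sets for 31 genes among 45037 probe sets in all. Isg15, Gbp4 and Ifi44 are not analysed here. Subclones L25 and L27 (low switching replicates 1 and 2) exchanged their antibody heavy chain class rarely in culture, and subclones H23 and H27 (high switching replicates 1 and 2) did so often and spontaneously. No interferon, other stimulus or engineered allele is named in the labels for any subclone, and all 4 were grown in the same medium with 10% fetal calf serum. Each subclone is 1 clone measured on 1 array of total RNA, so the values describe these 4 clones. The labels do not tell how the subclones of 1 class are related, and the spread between their arrays may be clonal or technical.

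Type I interferons bind the receptor chains IFNAR1 and IFNAR2, whose kinases JAK1 and TYK2 activate STAT proteins. STAT2, its STAT partner and IRF9 form a transcription factor that binds the interferon-stimulated response element and raises the transcription of antiviral genes. Interferon gamma acts through another receptor and a different STAT dimer, and induces many guanylate-binding and immunity-related GTPases. In many cell types, immune cells among them, part of this set is transcribed at a low, steady level without infection.

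Array quality touches every value below. The median probe set had an intensity of 38.1 to 39.3 on the 4 arrays, near 5.27 on the log2 scale, and levels close to it need not track the amount of transcript. Hybridization controls were brighter on 1 array of each class, low switching replicate 1 (mean log2 intensity 11.07) and high switching replicate 2 (10.98), than on the other arrays (10.45 and 10.49). Of 9 measured markers of hybridoma and plasma cells, 8 had log2 intensities of at least 8.43 on every array, while Cd79a, a part of the B cell receptor, lay between 5.04 and 5.25. Of these 9, Tnfrsf17 (-0.71, limma adjusted p = 0.0454) and Xbp1 (-0.71, adjusted p = 0.0461) were called lower in high switching subclones and Cd79b, the partner of Cd79a, was called higher (0.77, adjusted p = 0.0238). Of 32 markers of myeloid cells, T cells, plasmacytoid dendritic cells and fibroblasts, 2 passed the test, the integrin gene Itgam as lower (-1.38, log2) and Lum as higher (1.21). Over all genes, 4.82% were called in either direction. The summed intensity of 9 myeloid markers was 1380 to 1526 in low and 1606 to 1747 in high switching subclones, that of 7 plasmacytoid dendritic cell markers 11531 to 11946 and 10125 to 13364, that of 8 T cell markers 755 to 756 and 731 to 747, and that of 8 fibroblast markers 184 to 207 and 234 to 240. The brightest myeloid marker was Cd68 (9.58 to 10.35, log2) and the brightest plasmacytoid dendritic cell marker Cox6a2 (12.64 to 13.39). Each weighs most in the sum of its list, and 4 of the 9 myeloid markers lay below the median probe set on every array. What part these cell types had in the results was not tested.

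High switching subclones had lower levels of part of the interferon stimulated genes, Trim30a, Xaf1, Usp18 and Ifih1 among them, and no member was called higher. Of the 46 probe sets, 13 were lower in high switching subclones and 0 were higher (limma, Benjamini-Hochberg adjusted p under 0.05), against 2.10% of all probe sets lower and 674 of 45037 higher. At an unadjusted p under 0.05, 20 were lower and 1 higher, against 4355 lower and 4037 higher of all 45037 probe sets. The 13 probe sets belong to 11 of the 31 genes, and 2.78% of all 18193 genes were called lower when the brightest probe set represented each gene. The median log2 difference, high minus low, was -0.31 over the member probe sets and 0.01 over all probe sets. Both high switching arrays lay below both low switching arrays for 26 of 46 probe sets, against 22.2% of all, and above them for 3, against 25.1% of all. With a gap of at least 2-fold required across the classes for every pair of arrays, 10 probe sets were lower, against 0.573% of all, and 0 were higher, against 0.342%. Calls over all probe sets, in either direction, made up 3.59%. Without low switching replicate 1 this share was 0.684%, and 7 member probe sets of 6 genes were called instead of 13 of 11. With the hybridization control level as a block it was 0.338%, and 6 member probe sets of 5 genes were called. With 2 arrays in each class the smallest two-sided p of an exact permutation test is 0.333, and the calls depend on the variance that limma estimates over all probe sets. In bulk RNA, fewer cells with a transcript and less of it in each cell cannot be told apart.

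**Figure D1:**
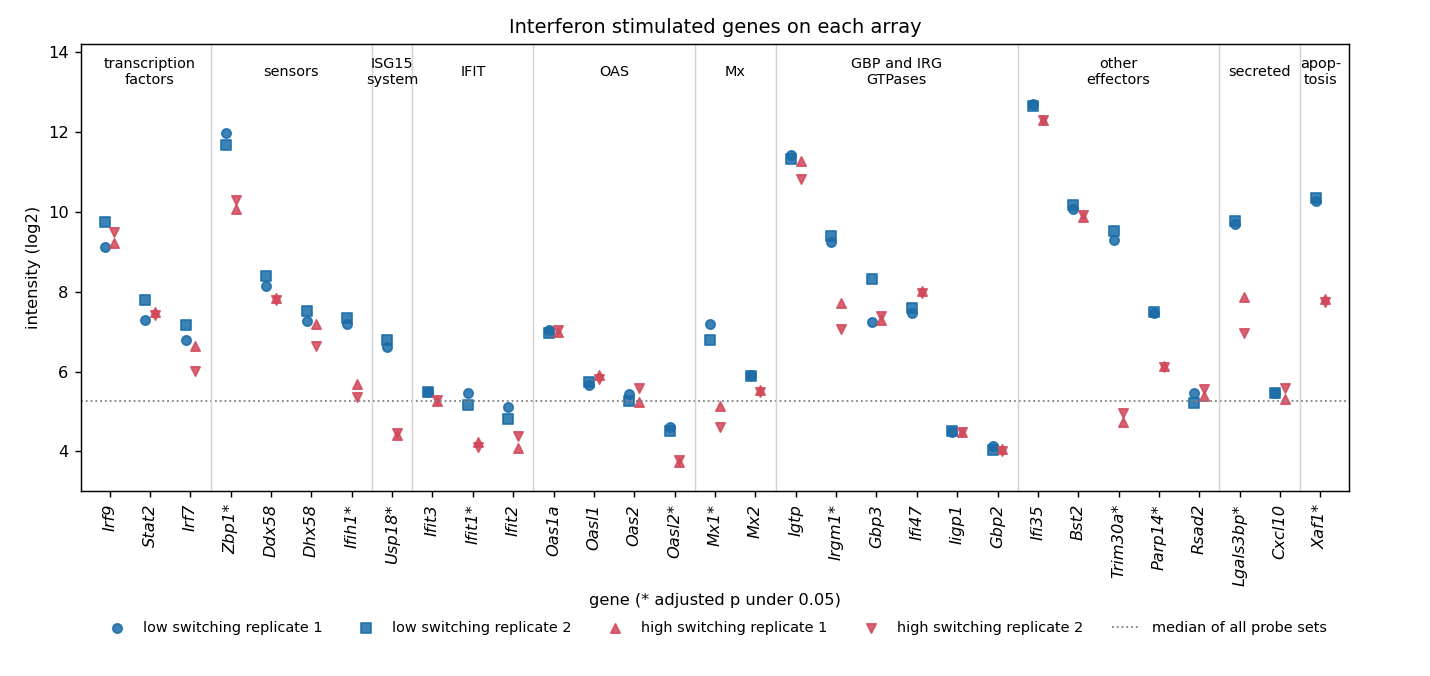
Log2 intensity of the probe set representing each of the 31 measured genes (vertical axis) on the low switching (blue) and high switching (red) arrays, grouped by role, with the median of all probe sets as a dotted line and an asterisk where the adjusted p is under 0.05. Trim30a drops from above 9 to below 5, while Ifi35, Bst2 and Oas1a differ little between the classes.

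The interferon-stimulated response element was looked for as GAAA, any 2 bases and GAAA again, on either strand, in RefSeq promoter windows of build GRCm38.p6, from 250 bases before to 50 bases after a transcript start. Of the 34 members, 25 had a window, and 15 of these 25 genes held the motif. Counted by window, 16 of 29 member windows held it, against 3.44% of all 32851 windows. Among members called lower in high switching subclones, 4 of 7 genes with a window held it, and among measured members without a call 10 of 16 did. The gamma-activated motif TTCNNNGAA, a palindrome in its fixed letters, was present in windows of 0 of 7 called and 5 of 16 uncalled genes. Counted by window, 5 of 29 member windows held it, against 8.30% of all windows. A match is a description of letters and not a measured binding site. The windows shown are those of 3 genes that fell (Trim30a, Irgm1, Ifih1) and of 2 bright genes without a call (Igtp, Bst2), because genes of both kinds hold the same motif; capitals mark the matches.
Trim30a promoter, chr7:104465144-104465443, minus strand: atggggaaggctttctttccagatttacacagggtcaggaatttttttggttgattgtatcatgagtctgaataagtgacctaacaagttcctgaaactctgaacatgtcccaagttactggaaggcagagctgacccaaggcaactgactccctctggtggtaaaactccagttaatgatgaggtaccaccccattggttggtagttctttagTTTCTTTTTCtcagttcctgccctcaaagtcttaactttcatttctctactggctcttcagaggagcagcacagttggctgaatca
Irgm1 promoter, chr11:48871371-48871670, minus strand: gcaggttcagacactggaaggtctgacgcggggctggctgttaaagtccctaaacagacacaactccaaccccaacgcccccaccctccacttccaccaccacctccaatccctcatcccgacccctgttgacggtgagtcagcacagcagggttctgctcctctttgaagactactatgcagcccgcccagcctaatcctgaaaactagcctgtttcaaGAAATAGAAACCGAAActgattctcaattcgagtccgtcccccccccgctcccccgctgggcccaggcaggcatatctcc
Ifih1 promoter, chr2:62646206-62646505, minus strand: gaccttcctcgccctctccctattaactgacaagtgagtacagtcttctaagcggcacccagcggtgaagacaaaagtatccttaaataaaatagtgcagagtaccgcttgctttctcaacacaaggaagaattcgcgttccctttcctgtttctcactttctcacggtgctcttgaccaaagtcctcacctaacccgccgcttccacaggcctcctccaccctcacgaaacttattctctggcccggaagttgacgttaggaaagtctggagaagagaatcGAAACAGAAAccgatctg
Igtp promoter, chr11:58199306-58199605, plus strand: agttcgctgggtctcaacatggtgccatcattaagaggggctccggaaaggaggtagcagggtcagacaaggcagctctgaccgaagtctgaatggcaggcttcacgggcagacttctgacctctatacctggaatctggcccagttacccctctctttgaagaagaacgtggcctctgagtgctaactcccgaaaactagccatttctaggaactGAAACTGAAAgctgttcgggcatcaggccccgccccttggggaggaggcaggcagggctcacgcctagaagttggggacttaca
Bst2 promoter, chr8:71537423-71537722, minus strand: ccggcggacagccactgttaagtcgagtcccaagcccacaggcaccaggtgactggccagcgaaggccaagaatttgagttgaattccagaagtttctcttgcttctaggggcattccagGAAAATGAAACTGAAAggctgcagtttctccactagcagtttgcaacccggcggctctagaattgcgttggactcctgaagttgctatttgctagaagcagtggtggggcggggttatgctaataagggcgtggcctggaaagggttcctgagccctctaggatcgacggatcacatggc
In Irgm1 the matches begin 30 and 24 bases before the start and overlap, and in Bst2 they begin 130 and 124 bases before it and overlap. The match begins 34 bases before the start in Igtp and 36 bases before it in this Trim30a window, where it lies on the opposite strand. In Ifih1 it lies after the start. A further Trim30a window also held the motif and is not shown.

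The transcription factors of the response did not pass. Irf9, the DNA-binding partner of the STAT dimer, read 9.12 and 9.75 in low and 9.21 and 9.49 in high switching replicates 1 and 2 (log2 intensity), and the classes overlapped. Stat2 read 7.28 and 7.78 against 7.49 and 7.41 on its brighter probe set, again with overlap, and its second probe set differed by -0.12. For these genes the 95% intervals of the log2 difference ran from -0.63 to 0.45 (Irf9) and from -0.52 to 0.35 (Stat2), so changes of up to that size are not excluded. Irf7, a factor that interferon itself induces and that amplifies interferon production, read 6.80 and 7.18 in low and 6.65 and 6.01 in high switching replicates. Both high arrays were below both low arrays, but high switching replicate 1 lay close to low switching replicate 1, and the difference of -0.66 ± 0.24 (SE) had a limma adjusted p of 0.211.

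Among sensors of foreign nucleic acid, which recognise viral RNA or Z-form nucleic acid in the cytosol, Zbp1 and Ifih1 fell. Zbp1, a Z-nucleic acid sensor linked to necroptosis, was the second brightest member in low switching subclones and read 11.97 and 11.67 there and 10.08 and 10.29 in high switching subclones. This is a 3.11-fold difference (-1.64 ± 0.15, limma adjusted p = 0.00713), and this probe set stayed well above the median probe set on every array. Its dimmer probe set read 9.15 and 8.75 against 7.84 and 7.25 (adjusted p = 0.0349). Ifih1, which encodes the double-stranded RNA sensor MDA5, read 7.19 and 7.34 against 5.69 and 5.37, a 3.33-fold difference (limma adjusted p = 0.00584). The high switching level of Ifih1 lies near the median probe set, so this fold is approximate. Ddx58, which encodes the related sensor RIG-I, read 8.15 and 8.40 against 7.83 and 7.80 on its brightest probe set, with no overlap but a difference of only -0.46 ± 0.13 (adjusted p = 0.116). Dhx58, a regulator of both sensors, read 7.27 and 7.52 against 7.19 and 6.64 (-0.48, adjusted p = 0.278). The other probe sets of Ddx58 and Dhx58 had low switching means of 4.21 to 5.73 and differences between -0.28 and 0.05. The differences of Ifih1 and Ddx58 were not tested against each other.

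Usp18, an ISG15-removing protease that also restrains signalling at IFNAR2, read 6.60 and 6.79 in low and 4.42 and 4.45 in high switching replicates. The classes were far apart and the arrays of a class close together (4.80-fold, -2.26 ± 0.12, limma adjusted p = 0.00104). The high switching level lies below the median probe set, so the fold is approximate.

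The IFIT genes encode proteins that bind foreign RNA, lie side by side on chromosome 19 and were close to or below the median probe set on all arrays. Ifit1 read 5.45 and 5.15 against 4.23 and 4.10 and fell (2.19-fold, limma adjusted p = 0.0176). Ifit2 read 5.10 and 4.81 against 4.09 and 4.38 (-0.72, adjusted p = 0.0681), and Ifit3 5.50 and 5.48 against 5.26 and 5.28 (-0.22, adjusted p = 0.344). In all 3 genes both high arrays were below both low arrays, which also held for 22.2% of all probe sets. Of the oligoadenylate synthetase family, whose enzymes are activated by double-stranded RNA and make the oligoadenylates that switch on a latent RNase, only Oasl2 passed, reading 4.61 and 4.51 against 3.73 and 3.78 (limma adjusted p = 0.022), all below the median probe set. Oas1a, Oas2 and Oasl1 had differences of 0.01, 0.08 and 0.16, and no call. Oas1a read 6.97 to 7.04 on the 4 arrays, well above the median probe set, and the 95% interval of its difference ran from -0.25 to 0.27.

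Mx1, a dynamin-like GTPase that blocks influenza virus in the nucleus, read 7.19 and 6.79 in low and 5.14 and 4.61 in high switching replicates, 4.35-fold apart (-2.12 ± 0.22, limma adjusted p = 0.0108). Its high switching level lies below the median probe set, so the fold is approximate. Mx2, a relative of Mx1, read 5.90 and 5.89 against 5.55 and 5.50, a smaller difference without a call (-0.37, adjusted p = 0.123). The GTPases linked to interferon gamma did not move together. Irgm1, which guards membranes against vacuolar pathogens, read 9.24 and 9.41 against 7.72 and 7.05 and fell 3.82-fold (limma adjusted p = 0.0151). Igtp, from the same family and chromosome and the third brightest member, read 11.42 and 11.33 against 11.27 and 10.81 (-0.34, adjusted p = 0.368). Ifi47, also of this family and on chromosome 11, read 7.47 and 7.58 in low and 8.02 and 7.96 in high switching subclones. It was the member with the largest positive difference (0.46 ± 0.11, limma adjusted p = 0.0843) and is named here after its values were seen. Gbp3 read 7.24 and 8.32 against 7.30 and 7.38, where the low switching subclones differed from each other by 1.08, more than the classes did. Gbp2 and Iigp1 had class means of 3.73 to 4.50 on their 4 probe sets, below the median probe set, with differences between -0.07 and 0.00.

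Trim30a, a ubiquitin ligase that interferon and Toll-like receptor signals induce and that limits NF-kappaB signalling, had the largest difference of the members. It read 9.49 and 9.60 in low and 4.07 and 4.38 in high switching replicates on 1 probe set, a 40.0-fold difference (-5.32 ± 0.14, limma adjusted p = 7.11e-05). The other probe set read 9.29 and 9.51 against 4.73 and 4.96, 23.5-fold apart (-4.55 ± 0.14). Both fell from well above to below the median probe set, so these folds are approximate. Xaf1, a pro-apoptotic antagonist of the inhibitor XIAP, read 10.27 and 10.35 against 7.82 and 7.74, 5.79-fold apart (-2.53 ± 0.11, limma adjusted p = 0.000424). Here the high level was still well above the median probe set, while a second Xaf1 probe set was dim on all arrays (4.15 to 4.50) and did not differ beyond its spread (-0.10 ± 0.15). Lgals3bp, a secreted glycoprotein that binds galectins, read 9.70 and 9.78 against 7.86 and 6.97, 5.01-fold apart (limma adjusted p = 0.0156), and high switching replicate 2 was the lower of its class by 0.89. Parp14, an ADP-ribosyltransferase, read 7.45 and 7.50 against 6.13 and 6.12, with almost no spread within a class (2.56-fold, limma adjusted p = 0.00425), and its second, dim probe set differed by 0.04.

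The remaining members showed little difference. Ifi35, which forms a complex with the STAT-interacting protein NMI, was the brightest member and read 12.70 and 12.66 against 12.30 and 12.29. All 3 of its probe sets were lower in high switching subclones without overlap, by 0.39 to 0.53 in size, and none passed (adjusted p = 0.0902 to 0.114). Of all probe sets with a low switching mean of 8 or more, 39.4% were lower without overlap. Bst2, or tetherin, which holds budding virus at the membrane, read 10.08 and 10.17 against 9.88 and 9.92 (-0.22, adjusted p = 0.346). Rsad2, which encodes the antiviral enzyme viperin, and the chemokine gene Cxcl10 lay near or below the median probe set on all arrays, with differences between -0.19 and 0.13.

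Split by the mean level in low switching subclones, members of every class were called lower. Of 14 member probe sets at 8 or more (log2), 7 were called, against 4.93% of all probe sets at that level, and 13 of the 14 had both high arrays below both low arrays, against 39.4% of all probe sets at that level. Of 19 between the median probe set and 8, 5 were called, against 3.25%, and of 13 below the median probe set 1 was called (Oasl2), against 0.124%. The median difference in these classes was -0.97, -0.28 and -0.06. Within the brightest class the members divided: Trim30a, Xaf1, Lgals3bp, Irgm1 and Zbp1 fell at least 2.65-fold on each probe set of that class, while Irf9, Bst2, Igtp, Ddx58 and the 3 probe sets of Ifi35 differed by 1.45-fold or less. The low switching arrays enter both the level and the difference, which makes this split a description. When split by the mean over all 4 arrays, 5 of 12, 6 of 20 and 2 of 14 were called, against 3.84%, 3.87% and 0.333% of all probe sets.

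**Figure D2:**
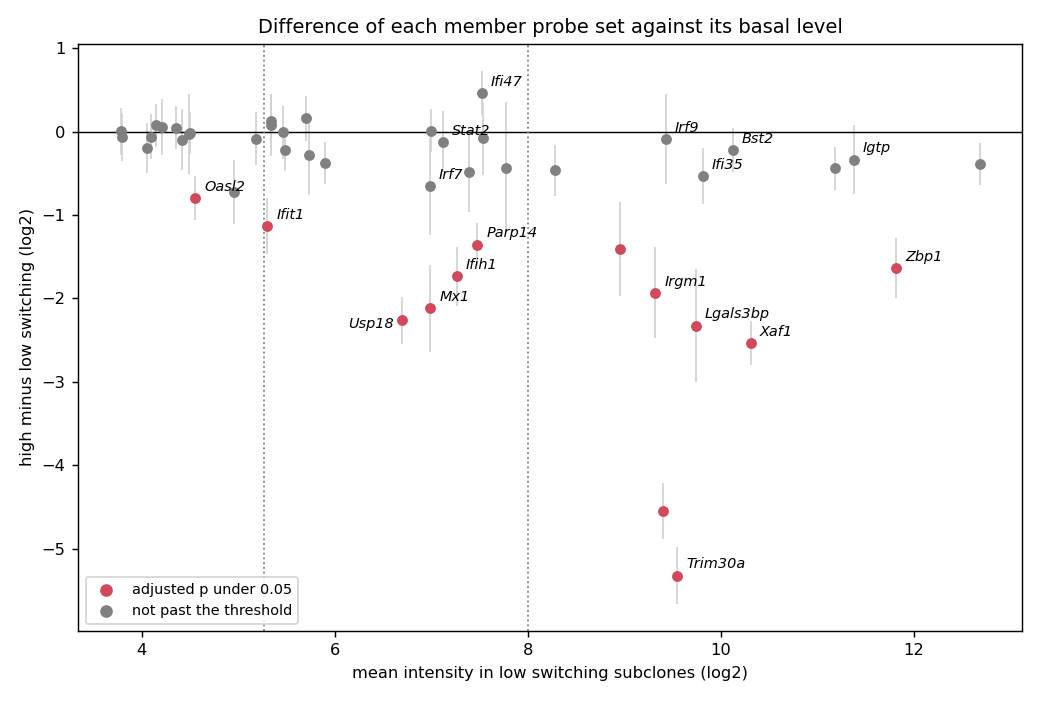
Log2 difference (high minus low switching, vertical axis, with its 95% interval) of each of the 46 member probe sets against its mean log2 intensity in low switching subclones, with dotted lines at the median probe set and at 8. Red points passed the threshold, and at levels of 8 or more they lie between -1.41 and -5.32 while the grey points stay between -0.09 and -0.53.

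The calls differed in how much they rested on 1 array. Those of 7 probe sets of 6 genes (both of Trim30a, Xaf1, Usp18, Ifih1, the brighter one of Zbp1, and Parp14) held whichever single array was left out. Those of Lgals3bp and Irgm1 ended without either low switching array (limma adjusted p = 0.0823 and 0.0694 for Lgals3bp, 0.0729 and 0.067 for Irgm1), and that of Mx1 without low switching replicate 1 (0.0549). The call of Ifit1 held only without low switching replicate 2, and that of the dimmer Zbp1 probe set only without high switching replicate 1. Oasl2 did not pass with any array left out. No member difference that had passed changed sign, and the values with 1 array left out ran from -2.77 to -1.88 for Lgals3bp, the widest range among them. With the hybridization control level as a block, Lgals3bp, Irgm1, Mx1, Parp14, Ifit1, Oasl2 and the dimmer Zbp1 probe set had adjusted p-values of 0.0539 to 0.138. With a minimum fold of 1.5 required, Lgals3bp, Irgm1, Mx1, Ifit1, Oasl2 and both Zbp1 probe sets no longer passed.

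**Figure D3:**
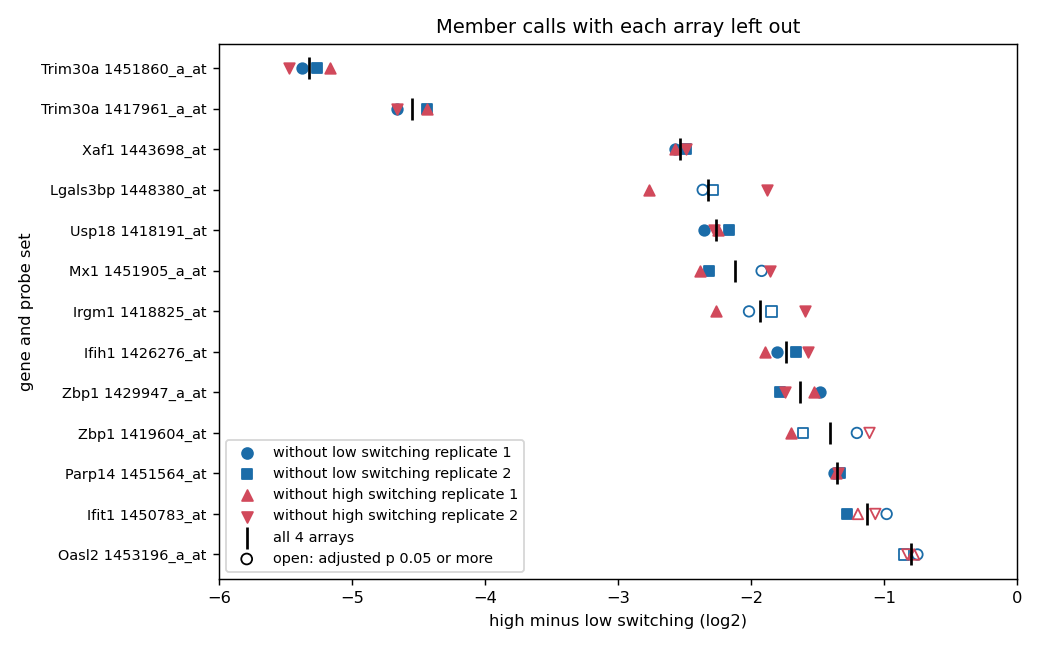
Log2 difference (high minus low switching, horizontal axis) of the 13 called member probe sets with all 4 arrays (black bar) and with each array left out (symbols, open where the adjusted p is 0.05 or more). Trim30a, Xaf1, Usp18, Ifih1 and Parp14 keep filled symbols throughout, and Oasl2 has open symbols throughout.

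The measured members lie on 14 chromosomes and the called ones on 7 of them. Chromosome 11 holds 7 members, of which Xaf1, Lgals3bp and Irgm1 were called and Igtp, Ifi47, Ifi35 and Dhx58 were not. The nearest genes with a mean of at least 7 (20 on each side) had median differences of -0.27 around Trim30a, -0.45 around Parp14, 0.28 around Usp18 and 0.36 around the IFIT genes. After this median was subtracted, Trim30a differed by -5.06 and -4.29, Parp14 by -0.90, Usp18 by -2.55 and Ifit1 by -1.49, and 15 member probe sets were called, Ifit2 and Ifit3 among them, where 4.56% of all probe sets with such neighbours passed in either direction.

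Other genes of the pathway were read from 6 lists of 101 genes, of which 84 were measured. The median difference of these 84 was -0.10, against 0.01 over all genes. At an unadjusted p under 0.05 (limma), 30 were lower and 7 higher, against 2209 and 1960 of all 18193 genes. After adjustment 16 were called lower and 0 higher in high switching subclones, against 2.78% and 2.04% of all genes. The count of 16 was lower with any 1 array left out, and it was 2 with the hybridization control block. Calls over all probe sets were also fewer in each of these fits. With the block 0.338% of them passed in either direction, instead of 3.59%. No interferon gene itself gave a call: the 5 measured ligands (Ifnb1, Ifna1, Ifna2, Ifna4 and Ifng) lay below the median probe set on all arrays, with differences between -0.07 and 0.06. Gene calls rest on the representing probe set. Only part of the probe sets passed for Irf3 (2 of 4), Ptpn11 (1 of 3), Il10rb (1 of 2), Trim34a (1 of 2) and Ifi44l (2 of 3). Among genes without a call, Sting1 (1 of 2) and Uba7 (1 of 3) had a probe set called lower. Pias1 (1 of 4) had a probe set called higher.

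At the receptor, Ifnar2 read 10.32 and 10.37 in low and 8.14 and 8.63 in high switching replicates, and all 3 of its probe sets were called. Il10rb, a chain of the interleukin-10 and interferon lambda receptors that lies beside it on chromosome 16, read 10.02 and 10.02 against 8.43 and 8.79 (-1.41, limma adjusted p = 0.0111). Ifnar1, from the same cluster, had a difference of -0.85 on its brighter probe set (adjusted p = 0.0518) and -0.59 on the other, which passed (adjusted p = 0.0475). Of 14 receptors and signal transducers, the third gene called was Ptpn11, which encodes the phosphatase SHP-2 (-0.73). Over all genes, 2.78% were called lower. The kinases Jak1 (-0.49, adjusted p = 0.144) and Tyk2 (0.29, adjusted p = 0.217) and the inhibitor Socs1 (0.23, adjusted p = 0.355) had no call. Jak2 had a difference of 0.91 with a call on 1 of 2 probe sets, and not on the one representing the gene (limma adjusted p = 0.0582).

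Of 6 further interferon regulatory factors 1 was called, Irf3, which carries the signal of nucleic acid sensors to the interferon genes (-0.71, limma adjusted p = 0.0398). Irf1, the main factor induced by interferon gamma, read 10.23 and 10.27 against 10.13 and 10.16 (-0.11, adjusted p = 0.688). Of 14 adaptors and kinases of nucleic acid sensing 1 was called, the kinase gene Ikbke. It read 5.06 and 5.11 against 4.53 and 4.53 (-0.55, limma adjusted p = 0.0495), all below the median probe set. With 2.78% of all genes called lower, 1 call says little about a list of either size. The calls of Irf3, Ikbke and Ptpn11 ended with any 1 array left out, and that of Il10rb without low switching replicate 1 or 2 (adjusted p = 0.0664 and 0.0522).

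Further interferon-induced genes outside the members had 7 of 29 called lower, against 2.78% of all genes. Their median difference was -0.52, against 0.01 over all genes. Ifitm3, which blocks virus entry at endosomes, read 8.27 and 8.87 against 6.53 and 5.23 (-2.69 ± 0.42, limma adjusted p = 0.0322), and Ifi27l2a, a mitochondrial protein gene, 11.21 and 11.05 against 8.68 and 8.86 (-2.36 ± 0.12, adjusted p = 0.00108). Ifi27, Parp9 and Isg20 differed by -1.69, -0.96 and -0.91. Herc6, which encodes a HERC family protein, differed by -1.38 on the brightest probe set over all arrays and by -2.67, -2.67 and -2.66 on the others, all called. Among paralogues and neighbours of members, 4 of 16 were called lower, against the same 2.78% of all genes. Gbp6, a guanylate-binding protein gene on chromosome 5, read 7.11 and 7.18 against 4.25 and 4.23 (7.50-fold, limma adjusted p = 0.000263), Gbp8 5.72 and 5.58 against 3.87 and 3.61, and Ifi44l 5.57 and 5.67 against 3.82 and 4.29. The high switching levels of these genes lie below the median probe set, so their differences are approximate. Trim34a, which lies near Trim30a on chromosome 7, read 6.34 and 6.32 against 4.91 and 5.31 (-1.22, limma adjusted p = 0.019). Trim30d, a listed paralogue, had 2 single-symbol probe sets without a call, and the brighter one was between 3.98 and 4.10 on all arrays (-0.05). Its listed relatives Trim30b and Trim30c are not analysed here. The calls of Ifnar2, Ifi27l2a, Herc6, Gbp6 and Gbp8 held with any 1 array left out, those of Ifitm3, Ifi27, Ifi44l and Trim34a ended without low switching replicate 1 or 2, and those of Parp9 and Isg20 ended with any 1 array left out. Both Trim30a probe sets carry a suffix that marks probes shared by transcript variants. Whether paralogues add to their signal was not tested.

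**Figure D4:**
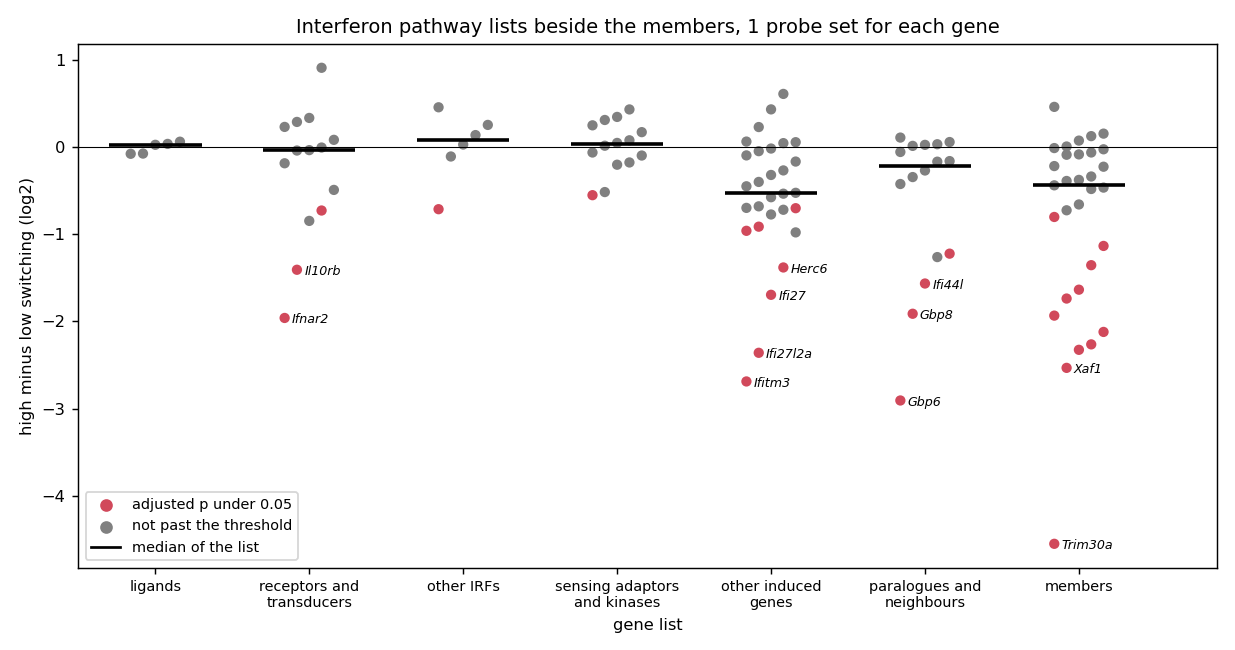
Log2 difference (high minus low switching, vertical axis) of each measured gene of the 6 pathway lists and of the 31 members, 1 probe set for each gene, with list medians as black bars. Called genes are red and all lie below 0; the ligands cluster around 0, and list medians are lowest for the other induced genes (-0.52) and the members (-0.44).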

How the data were processed

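Total RNA of each subclone was labelled with biotin and hybridized to 1 GeneChip array, per the labels. The authors deposited linear intensities, and the submitters' processing notes name RMA (background correction, normalization between arrays and summary of probes), with no version. This method compresses differences near the background. The deposited intensities were put on the log2 scale here. The table lists 45101 probe sets; removing 64 controls left 45037, all of which entered the fit. Symbols came from the platform annotation of 2016; names were checked against RefSeq (GRCm38.p6), and a build used by the authors was not given in the sources used here. Probe sets with no symbol or more than 1 stayed in the fit without a name. Some listed genes are not analysed here.

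The difference between classes was tested with limma 3.58.1 in R 4.3.3 (lmFit and eBayes, two-sided, Benjamini-Hochberg over all probe sets, threshold 0.05). SE is the moderated standard error. Each gene was represented by its brightest probe set (mean of all 4 arrays). The members, lists, roles, level classes and alternatives were chosen with earlier results of these data known. Named were members with a called probe set, the transcription factors, the sensors, the 3 members brightest in low switching subclones, up to 6 called genes of each pathway list and a few fixed pathway genes; other members are given by their values or ranges. The fit was tested on simulated data. Alternatives were variance models, filters on dim probe sets, normalizations, probe sets that may match several transcripts, a minimum fold, an added value of 16, the hybridization control level as a block, the median of neighbouring genes, the mean over a gene's probe sets, and leaving out each array. Python 3.11.15 with matplotlib 3.10.9 drew the figures.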

Additional observations from a re-analysis of the deposited data

How the results depend on the processing

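The direction of every called member difference was the same under all alternatives run. The count of 13 lower member probe sets (11 genes) was 8 (7 genes) without probe sets that may match several transcripts, 6 (5 genes) with a minimum fold of 1.5, and 6 (5 genes) with the hybridization control level as a block. Of all probe sets tested, 3.18%, 0.362% and 0.338% passed in these settings, in either direction, instead of 3.59%. With a mean level of 6 or more, where 9.92% of all probe sets passed, the count was 7 genes, since fewer members were tested (18 of 31). With 1 array left out it ran from 7 to 11 probe sets and from 6 to 9 genes, in each case lowest without low switching replicate 1. Over the same 4 fits, 0.684% to 1.29% of all probe sets passed instead of 3.59%. Both probe sets of Trim30a, the brighter one of Xaf1 and those of Usp18 and Ifih1 passed under every alternative in which they were tested. Asking for a 2-fold gap between every pair of arrays in place of any gap left 10 of 26 member probe sets. Of pathway genes called lower, 16 in the report, 9 remained in number without probe sets that may match several transcripts, 4 with a minimum fold of 1.5, 2 with the block, and 5 to 11 with 1 array left out. Pathway genes called higher, 0 in the report, numbered 1 with probe sets under 6 removed, 1 with those under the median removed, 1 with cyclic loess and 1 when the probe sets of a gene were averaged (which gave 11 member genes and 17 pathway genes lower), and 2 with quantile normalization applied again and 2 with the median of neighbouring genes subtracted. Beyond what the alternatives' own construction shows (fewer probe sets, arrays or degrees of freedom), the cause was not tested. Among the transcription factors and sensors, values near 0 without a call changed sign when 1 array was left out. The ranges were -0.40 to 0.23 for Irf9 and -0.33 to 0.17 and -0.31 to 0.068 for the Stat2 probe sets. They were -0.57 to 0.016 and -0.29 to 0.23 for the middle and dimmest Dhx58 probe sets, and -0.22 to 0.045 and -0.11 to 0.21 for the dimmer Ddx58 probe sets. Sign changes of other members are not listed here. With the median of neighbours subtracted, 1 Ddx58 probe set was at 0.14, the dimmest Dhx58 probe set at 0.097 and Tyk2 at -0.15. No paired analysis was possible because the subclone numbers of the classes share only 1 value (27) and replicate numbers were assigned here. With 2 arrays a class and no detection calls used here, small differences and those of dim probe sets are poorly measured.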

Other observations

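Within the high switching class, 7 of 46 member probe sets were lower in replicate 2 than in replicate 1 by at least 0.5 (log2) and 0 were higher by that much, against 898 lower and 994 higher of all 45037 probe sets. These 7 were Lgals3bp (-0.89), Irgm1 (-0.67), Irf7 (-0.64), both brighter probe sets of Dhx58 (-0.59 and -0.55), the dimmer probe set of Zbp1 (-0.59) and Mx1 (-0.53). Usp18 and the brighter probe sets of Parp14 and Xaf1 differed by 0.08 or less between the same arrays, the dimmer Xaf1 probe set was higher in replicate 2 by 0.34, and Trim30a was higher in replicate 2 by 0.23 and 0.31. Outside the members, Ifitm3 read 6.53 in replicate 1 and 5.23 in replicate 2 and Parp12 read 6.65 and 5.43, while Trim12c (7.57 and 8.48) and Ifi27 (7.66 and 8.21) went the other way. Within the low switching class, 4 member probe sets were higher in replicate 2 by at least 0.5 and 0 were lower, against 941 higher and 773 lower of all probe sets. These pairs have 1 array on each side, so the differences have no test, and they were picked after their values were seen.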
